A study of Mus musculus with 12 samples.

Results

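Phf6 knockout (KO) cells of the mouse embryonic stem cell line ZHBTc4 were taken out of the stem cell state by 2 treatments, and the treatments were compared with each other directly. The comparison used 4 of the 12 RNA-seq libraries of the series, chosen by their labels alone: 2 of KO cells after 2 days of doxycycline and 2 of KO cells after 4 days of all-trans retinoic acid. The other libraries were 2 of untreated KO cells and 6 of wild type (WT) cells under the same 3 conditions. They entered the same fit and are cited where a level or a difference between the lines is described. All groups share the 129/Ola strain background and carry the ZHBTc4 alleles, whose only source of Oct4, the pluripotency factor that Pou5f1 encodes, is a transgene shut off by doxycycline. The sample labels give 0.5 ug/ml doxycycline, whereas the protocol text names a unit of mg/ml. The retinoic acid concentration is not repeated here because its unit in the protocol is doubtful.

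Stem cells that lose Oct4 turn toward trophectoderm, the outer layer of the blastocyst that later builds the placenta and is marked by Cdx2, Gata3, Hand1 and simple epithelial keratins. Retinoic acid acts through nuclear receptors bound to response elements in DNA. In embryonic stem cells it switches on its own degrading enzymes and the Hox gene clusters, and it favours neural or extraembryonic endoderm fates depending on the culture. Phf6 is a zinc finger protein of the nucleus and nucleolus, and the series asks how it bears on lineage genes.

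Several conditions changed together with the treatment. Retinoic acid was given in medium without leukemia inhibitory factor (LIF), the cytokine that sustains mouse stem cells, whereas the growth medium contains it. Treatment times differed, and RNA of the retinoic acid samples passed through a column kit (Qiagen RNeasy) that was not named for the others. Treatment, time, medium and extraction cannot be told apart in any value below. Whether the replicates came from separate cultures, and how many KO clones were grown, is not stated. The p-values therefore cover the spread among these libraries alone, and that spread may be technical. Early passages were grown on mouse fibroblast feeders before the switch to gelatin.

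The 12 libraries held 15799544 to 21441994 counts. In the first 2 principal components, with 47.9% and 33.4% of the variance, the retinoic acid and the doxycycline libraries each stood apart from the rest, and KO parted from WT along the third (7.2%). Genes with at least 1 count numbered 22421 and 22223 in the KO doxycycline libraries and 24419 and 24000 with retinoic acid. Levels are given in CPM (reads of a gene relative to the TMM-scaled library total), and differences as log2 of retinoic acid over doxycycline ± SE, so that positive values mean higher with retinoic acid. A gene is called where the edgeR quasi-likelihood test gives a Benjamini-Hochberg adjusted p under 0.05. Bulk RNA cannot tell fewer cells of a type from less RNA per cell.

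Of 17884 genes tested, 6778 (37.9%) were higher with retinoic acid and 5947 (33.3%) were higher with doxycycline, 71.2% together. Differences of at least 2-fold were less even: 3754 genes (21%) were higher with retinoic acid and 1494 (8.35%) with doxycycline, 29.3% together. The median over all genes was 0.06. Against these background shares, a list of genes is described below by its counts and median, with no test of the list. A list member with reads in only 1 group passes the count filter through that group, so such counts are descriptions.

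The gene that doxycycline shuts off and the disrupted gene were examined first. Pou5f1 (ENSMUSG00000024406.16, chromosome 17, 35506018 to 35510772, GRCm38) stood at 13.03 and 14.3 CPM with doxycycline and at 976 and 989 CPM with retinoic acid. The retinoic acid libraries were below the untreated KO level of 1194 ± 2.397 CPM (SD, n = 2), with a log2 difference from untreated of -0.28 (adjusted p = 0.011). Between the 2 treatments the difference was 6.17 ± 0.12 (adjusted p = 2.8e-13). Phf6 (ENSMUSG00000025626.16, chromosome X, 52912266 to 52956943) was low in all 4 libraries, at 7.38 and 8.19 CPM with doxycycline and 5.90 and 5.96 CPM with retinoic acid. The KO difference was -0.39 ± 0.146 (adjusted p = 0.019). WT cells had 32.5 ± 3.72 and 40.5 ± 0.293 CPM in the same conditions. From totals per gene it cannot be seen where in Phf6 the remaining reads lie.

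Genes of the stem cell state were mostly higher with retinoic acid than with doxycycline, and Nanog was an exception. Of 27 naive pluripotency genes tested, 17 were higher with retinoic acid, 5 with doxycycline and 5 were not called (median 0.93). Nanog, a core self-renewal factor, had 111 and 114 CPM with doxycycline and 73.2 and 77.0 CPM with retinoic acid, against 754 ± 21.9 CPM untreated. It was thus lower with retinoic acid (-0.58 ± 0.054, adjusted p = 1.6e-10), the opposite direction to Pou5f1. Oct4 in these cells comes only from the transgene that doxycycline shuts off, so the Pou5f1 difference does not show regulation of the native gene. Sox2, the DNA-binding partner of Oct4, had 60.1 and 66.7 CPM with doxycycline and 93.2 and 99.8 CPM with retinoic acid. Esrrb, an orphan nuclear receptor of self-renewing cells, stood at 21.98 and 23.6 CPM with doxycycline and 30.2 and 35.7 CPM with retinoic acid, from 1057 CPM untreated. Zfp42 (Rex1), a marker of the naive state, stood at 49.6 and 51.0 against 95.4 and 90.1 CPM. The members furthest apart were genes nearly silent with doxycycline. Fgf4, the growth factor made by stem cells, had 0.392 and 0.239 CPM there and 9.83 and 9.57 CPM with retinoic acid. Gbx2, a homeobox gene of naive cells, had 0.224 and 0.598 against 20.03 and 21.2 CPM.

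Of 15 formative and primed epiblast genes tested, 11 were higher with retinoic acid and 2 with doxycycline (median 0.82). Without the first KO doxycycline library 16 were tested, with 10 and 2 called and a median of 0.54. Sox3, a SoxB1 factor of epiblast and neural precursors, had 0.0559 and 0.358 CPM with doxycycline and 19.4 and 19.5 CPM with retinoic acid. Otx2, a driver of exit toward the epiblast state, went the other way, with 6.99 and 6.15 CPM with doxycycline and 0.140 and 0.157 CPM with retinoic acid. Its difference of -5.41 ± 0.29 (adjusted p = 1.3e-15) was among the 12 most negative, and the untreated level was 29.6 CPM. Fgf5, the standard primed marker, did not pass the filter (at most 7 counts in these libraries).

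**Figure D1:**
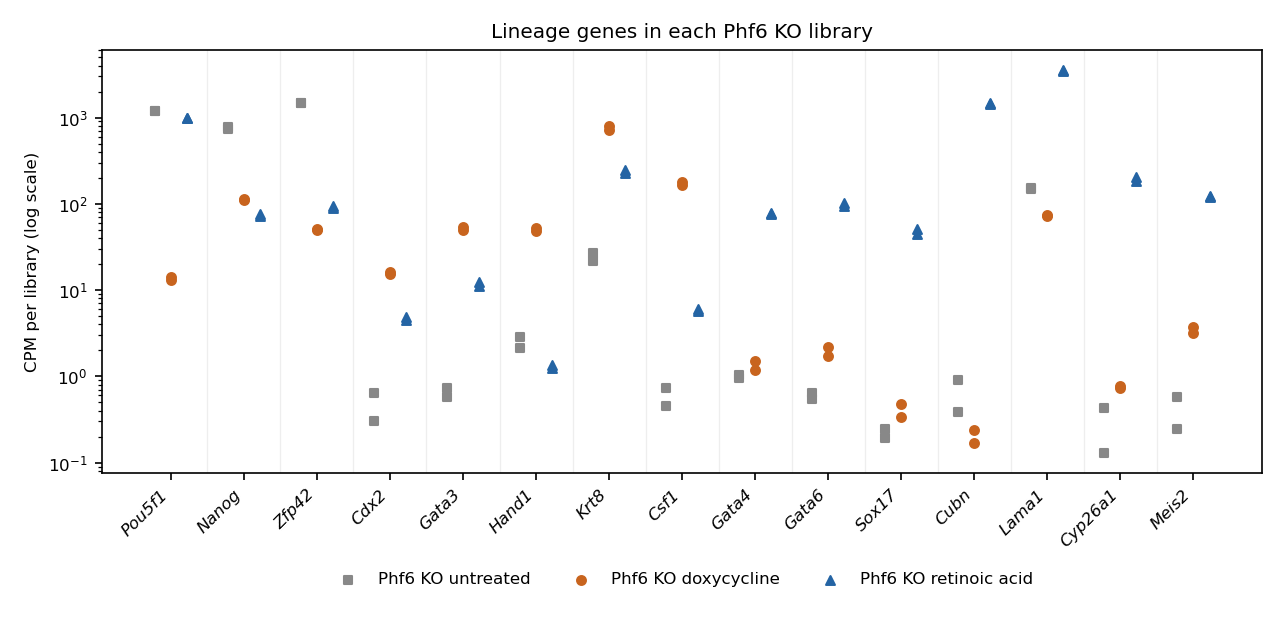
Each point is 1 Phf6 KO library (grey squares untreated, orange circles doxycycline, blue triangles retinoic acid), with CPM on a log axis, for 15 genes ordered by lineage. Pou5f1 is at 13.03 and 14.3 CPM with doxycycline, and with retinoic acid it is much closer to its untreated level but below it. Cdx2, Gata3, Hand1, Krt8 and Csf1 are higher with doxycycline, and the genes from Gata4 to Meis2 are higher with retinoic acid.

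Trophectoderm genes were called in both directions, more often higher with doxycycline. Of 17 transcription factors tested, 9 were higher with doxycycline, 3 with retinoic acid and 5 were not called (median -0.87). Cdx2 (ENSMUSG00000029646.3, chromosome 5, 147300805 to 147307270), the homeobox regulator of the lineage, stood at 15.2 and 16.1 CPM with doxycycline and at 4.45 and 4.92 CPM with retinoic acid. Both pairs were above the untreated 0.472 CPM, and the difference was -1.74 ± 0.13 (adjusted p = 2.2e-12). Gata3, a GATA factor of trophectoderm, had 53.4 and 49.2 against 11.2 and 12.3 CPM. Gata2, its relative in trophoblast, had 60.9 and 57.8 against 12.5 and 13.3 CPM. Tfap2c, an AP-2 factor of early trophoblast, had 58.8 and 58.9 against 14.04 and 12.03 CPM. Hand1, a bHLH factor needed for trophoblast giant cells, differed most, at 48.6 and 52.8 CPM with doxycycline and 1.26 and 1.36 CPM with retinoic acid (-5.27 ± 0.14, adjusted p = 2.2e-22). For that gene the retinoic acid libraries were below the untreated 2.49 CPM (log2 difference from untreated -0.93, adjusted p = 0.0017). The 3 members with the reverse direction were Tfap2a (2.33 ± 0.17), Id2 (1.57 ± 0.062), an inhibitor of bHLH factors, and Eomes (0.64 ± 0.18). Elf5, a trophoblast stem cell factor, had at most 3 counts in these libraries.

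Epithelial and placental genes divided within their lists. Of 25 keratin and junction genes tested, 14 were higher with doxycycline and 9 with retinoic acid (median -0.34, and -0.20 with effective-length offsets). Krt8 had 798 and 722 CPM with doxycycline and 227 and 245 CPM with retinoic acid, and its partner Krt18 had 639 and 609 against 162 and 173 CPM. Claudin-4 (Cldn4), a tight junction protein, showed the largest gap of the list, with 556 and 471 against 8.003 and 9.26 CPM (-5.90 ± 0.093, adjusted p = 9.1e-21). E-cadherin (Cdh1), which holds epithelial cells together, had 263 and 276 against 89.0 and 84.4 CPM. Among those higher with retinoic acid were the water channel gene Aqp3 (2.58 ± 0.19), the sodium pump subunit gene Atp1b1 (1.57 ± 0.053) and desmoplakin (Dsp, 0.97 ± 0.081). Of 18 placental genes, 11 were tested (median -0.99). Of these, 6 were higher with doxycycline, 5 of them by at least 2-fold, and 4 with retinoic acid, all by at least 2-fold. Csf1, a macrophage growth factor, had 165 and 180.1 against 5.76 and 5.96 CPM. Phlda2, an imprinted placental growth regulator, had 54.9 and 54.3 against 7.07 and 6.64 CPM. The other 7 members did not pass the filter, among them Tpbpa of the spongiotrophoblast and the placental lactogen genes Prl3d1 and Prl3b1, each at 0 counts in all 4 libraries, which allows up to 0.174 CPM with doxycycline and 0.149 CPM with retinoic acid.

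By the rule of the 12 largest called differences among genes reaching 5 CPM, the doxycycline side included Pcp4, Npas4, Slc6a14, Edn1, Sp5, Cldn4, Cidea, Pdgfb, Otx2, Hand1 and Fosb. Pcp4, a calmodulin-binding peptide, had 8.05 and 7.17 CPM with doxycycline and 0 and 0.0523 CPM with retinoic acid. Npas4 and Fosb are activity-induced transcription factors: Npas4 had 12.6 and 12.1 against 0 and 0.105 CPM. Edn1 (endothelin-1) had 13.7 and 14.8 against 0.140 and 0.209 CPM, and Pdgfb, a platelet-derived growth factor chain, had 57.5 and 47.9 against 1.08 and 1.31 CPM. No library of one treatment overlapped a library of the other for any of the 12, which the rule required and which held for 84.8% of all genes.

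The retinoic acid side of the same rule held Cubn, Habp2, Hoxb3, Hoxb5os, Ugt2b34, Ttr, Tcstv3, Srgn, Hoxb1, Exosc6, Pramel7 and Zscan4-ps2. Most were at or near 0 with doxycycline. Habp2, a serine protease gene of liver and plasma, had no count there and 28.3 and 30.3 CPM with retinoic acid, at least 169-fold higher against a floor of 3 counts per library. Srgn (serglycin), a proteoglycan core protein, had 0.112 and 0.179 against 145 and 160 CPM. Hoxb5os overlaps its antisense partner and the strand setting of the counting is not given in the sources used here, so its value is uncertain.

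Extraembryonic endoderm genes were high with retinoic acid. All 10 primitive endoderm factors tested were higher there (median 5.57). Gata4 had 1.51 and 1.20 CPM with doxycycline and 75.3 and 77.7 CPM with retinoic acid (5.81 ± 0.12, adjusted p = 8.6e-25). Gata6, which specifies primitive endoderm, had 1.73 and 2.21 against 95.2 and 101 CPM. Sox17, an HMG-box factor acting after Gata6, had 0.336 and 0.478 against 44.1 and 51.3 CPM. Dab2, an endocytic adaptor of endoderm, had 16.8 and 19.3 against 458 and 483 CPM.

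Functional products of that lineage followed the same direction. All 13 visceral endoderm genes that passed the filter were higher with retinoic acid (median 4.19), and Alb, Apoa1 and Apoa4 did not pass it, with at most 9 counts. Cubn (cubilin, chromosome 2, 13276338 to 13491813), an endocytic receptor of visceral endoderm, had 0.168 and 0.239 CPM with doxycycline and 1455 and 1434 CPM with retinoic acid. Its difference of 12.75 ± 0.12 (adjusted p = 6.8e-33) was the largest by the naming rule. Amn (amnionless), the partner that carries cubilin to the membrane, had 0.28 and 0.239 against 18.8 and 19.4 CPM. Lrp2 (megalin), the third receptor of this system, was already at 284 and 260.2 CPM with doxycycline and had 380 and 365 CPM with retinoic acid. Ttr (transthyretin), a carrier protein, had no count with doxycycline and 9.17 and 10.9 CPM with retinoic acid, at least 57.9-fold higher.

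Of 15 basement membrane and parietal endoderm genes, 14 were higher with retinoic acid and 1, Lama5, was not called (median 2.26). The 3 chains of laminin-111 all belonged to the 14. Lama1 had 72.4 and 73.5 CPM with doxycycline and 3496 and 3597 CPM with retinoic acid (5.6 ± 0.061, adjusted p = 2.6e-31). Lamb1 had 218 and 197 against 2697 and 2859 CPM, and Lamc1 had 405 and 385 against 3329 and 3416 CPM. The collagen IV genes Col4a1 (286 and 298 against 3020.0 and 3303 CPM) and Col4a2 (165 and 164 against 1810.0 and 1996 CPM) moved with them. Together the 15 genes held 4745 and 4442 CPM with doxycycline and 22530.0 and 23710 CPM with retinoic acid.

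Direct readouts of retinoic acid signalling came next. Sequences are shown for the 2 members of the retinoid list whose 250 bases before the RefSeq gene start (GRCm38.p6) hold a DR5 retinoic acid response element, a direct repeat of receptor half-sites 5 bases apart, searched on both strands and given in capitals. The Rarb window is chr14:16575477-16575726 on the minus strand, before a start that lies inside the annotated gene, and the element ends 36 bases before that start. The Cyp26a1 window is chr19:37697558-37697807 on the plus strand, with the element on the opposite strand, 15 bases before the start.
Rarb: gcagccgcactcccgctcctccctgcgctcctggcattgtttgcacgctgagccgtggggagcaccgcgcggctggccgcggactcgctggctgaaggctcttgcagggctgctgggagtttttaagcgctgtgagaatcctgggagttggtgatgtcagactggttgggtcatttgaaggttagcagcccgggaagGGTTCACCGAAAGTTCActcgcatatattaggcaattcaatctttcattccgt
Cyp26a1: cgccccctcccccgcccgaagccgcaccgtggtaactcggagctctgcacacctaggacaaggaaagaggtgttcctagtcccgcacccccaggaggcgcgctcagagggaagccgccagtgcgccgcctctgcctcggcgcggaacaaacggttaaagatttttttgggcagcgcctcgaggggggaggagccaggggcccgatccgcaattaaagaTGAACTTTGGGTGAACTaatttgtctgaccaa
Of 27025 genes with such a window, 28 (0.104%) held the element. Among the 16 retinoid list genes with a window these were the only 2, and none of 22 Hox genes with a window held it. A match in a window does not show that a receptor binds there.

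Both genes were near background with doxycycline and high with retinoic acid. Rarb, a retinoic acid receptor, had 0.727 and 0.538 CPM with doxycycline and 38.8 and 39.3 CPM with retinoic acid (5.93 ± 0.19, adjusted p = 1.1e-20). Cyp26a1, the enzyme that degrades retinoic acid, had 0.727 and 0.777 against 183 and 204 CPM (7.99 ± 0.13, adjusted p = 4e-26). The related enzyme genes Cyp26b1 (6.54 ± 0.15) and Cyp26c1 (6.79 ± 0.54) had the same direction. Of 18 receptors and targets tested, 15 were higher with retinoic acid, 2 with doxycycline and 1 was not called (median 2.66). Stra8, a retinoic acid-induced gene of germ cells, had 18.9 and 20.7 against 179.9 and 186 CPM. Crabp2, which delivers retinoic acid to its receptors, had 18.1 and 18.3 against 162 and 147 CPM. The 2 exceptions were Rxra, a shared receptor partner (-0.68 ± 0.066), and Tgm2, a transglutaminase known as a target in other cells (-1.30 ± 0.10). Genes of retinol uptake and retinoic acid synthesis were mostly higher with retinoic acid as well (7 of 10 tested, 1 lower), among them Aldh1a2, a retinoic acid-producing enzyme, with 0.895 and 0.777 against 10.2 and 8.52 CPM.

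Most Hox genes were higher with retinoic acid, and the exceptions lay at 1 end of the Hoxc cluster. The 4 clusters encode the transcription factors of the body axis, and low paralog numbers lie at the end that retinoic acid opens first. Of 38 tested, 32 were higher with retinoic acid, 4 with doxycycline and 2 were not called (median 4.45). The summed level of the list was 58.9 and 59.9 CPM with doxycycline and 594 and 583 CPM with retinoic acid. Hoxb1, at the 3′ end of its cluster, had 0 and 0.0598 against 31.4 and 28.6 CPM. Hoxb3 had no count with doxycycline and 19.3 and 19.4 CPM with retinoic acid, at least 112-fold higher. Hoxa5 had 0.224 and 0.0598 against 72.1 and 69.2 CPM.

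The 4 genes higher with doxycycline were Hoxc10, Hoxc11, Hoxc12 and Hoxc13, neighbours at the 5′ end of the Hoxc cluster. Hoxc10 had 3.52 and 3.23 CPM with doxycycline and 0.842 and 0.68 CPM with retinoic acid (-2.13 ± 0.28, adjusted p = 9.8e-08). Hoxc13 had 5.43 and 5.198 against 3.23 and 3.50 CPM (-0.66 ± 0.19, adjusted p = 0.0033). Hoxc11 and Hoxc12 were below 1 CPM in all 4 libraries. In WT cells Hoxc10 was at 6.23 and 6.70 CPM (means) with doxycycline and retinoic acid, and its difference between treatments was more negative in KO (-2.23, adjusted p = 8.8e-06). No called gene of the other clusters had this direction, and at their 5′ ends Hoxa13 (4.21 ± 0.63), Hoxb13 (1.66 ± 0.24) and Hoxd13 (2.23 ± 0.35) were higher with retinoic acid. Hox cofactors of the TALE class were also higher there, Meis1 with 4.87 and 4.30 against 96.1 and 96.0 CPM and Meis2 with 3.75 and 3.17 against 121 and 123 CPM.

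**Figure D2:**
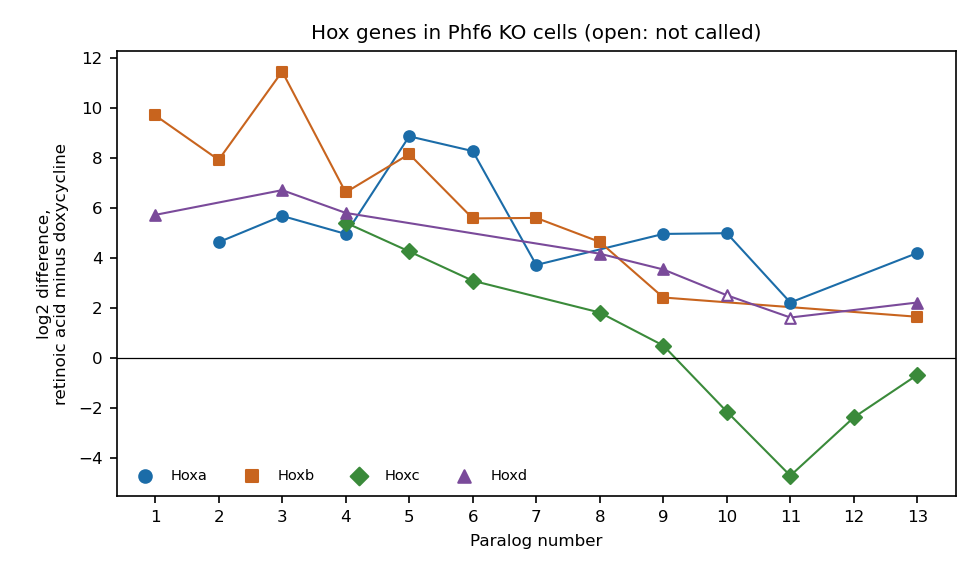
The log2 difference between retinoic acid and doxycycline in Phf6 KO cells (vertical axis) is plotted against paralog number for 37 of the 38 Hox genes tested, with 1 line per cluster, and open symbols are genes not called. Hoxc falls from 5.42 at Hoxc4 to below 0 at Hoxc10 to Hoxc13, while genes of the other clusters stay above 0, and fitted values of genes with no count with doxycycline, such as Hoxb3, depend on the fit's prior count.

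Signalling genes were counted by pathway. Of 15 genes of the LIF and Stat3 pathway, 8 were higher with doxycycline and 3 with retinoic acid, the condition without LIF (median -0.32). Socs3, the feedback inhibitor that Stat3 induces, had 152 and 149 CPM with doxycycline and 27.3 and 29.1 CPM with retinoic acid, and Junb had 133 and 133 against 30.2 and 31.9 CPM. Lifr, the receptor gene, had the reverse, 21.2 and 23.1 against 142 and 128 CPM. Of 17 tested Fgf and ERK genes, 11 were higher with retinoic acid and 4 with doxycycline (median 1.49). Receptors differed among themselves: Fgfr1 had 467 and 436 against 167 and 174 CPM, while Fgfr4 had 1.06 and 0.657 against 14.9 and 15.9 CPM. Of the ERK feedback genes, Dusp6 was higher with retinoic acid (1.70 ± 0.067) and Spry4 with doxycycline (-1.89 ± 0.10).

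BMP, Wnt and Nodal lists had medians near 0 to 0.37. Among 15 BMP and Id genes, 7 were higher with retinoic acid and 6 with doxycycline. The targets Id3 (343 and 330 against 88.6 and 94.7 CPM) and Id2 (50.8 and 48.2 against 143 and 151 CPM) went opposite ways. Bmper, a secreted BMP modulator, had 0.336 and 0.0598 against 16.01 and 15.7 CPM, whereas the antagonist Noggin (Nog) had 6.10 and 6.75 against 1.17 and 1.05 CPM. Among 17 tested Wnt genes, 6 were higher with retinoic acid and 5 with doxycycline, and median (0.06) and mean (-0.16) differed in sign. The Wnt targets Sp5 (11.3 and 8.96 against 0.187 and 0.105 CPM) and Axin2 (34.5 and 37.6 against 13.6 and 13.1 CPM) and the antagonist Dkk1 (91.01 and 94.5 against 25.3 and 28.2 CPM) were higher with doxycycline. Of 14 tested Nodal and activin genes, 9 were higher with retinoic acid and 2, the effectors Smad2 and Smad3, with doxycycline. Nodal itself had 5.37 and 6.03 against 14.7 and 14.3 CPM.

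Transcripts of the 2-cell embryo appeared with retinoic acid. These genes mark zygotic genome activation and a rare state of stem cell cultures. All 13 tested were higher with retinoic acid (median 7.24), and their summed level was 1.68 and 1.97 CPM with doxycycline and 297 and 284 CPM with retinoic acid. With levels this low under doxycycline, the count is a description and the median depends on the fit (6.63 with DESeq2). Zscan4c had 0 and 0.299 against 70.0 and 66.1 CPM, and Zscan4f had 0.559 and 0.418 against 98.7 and 92.6 CPM. Tcstv3 had no count with doxycycline and 9.08 and 10.6 CPM with retinoic acid, at least 56.7-fold higher. Duxf3, of the Dux family that activates these genes, had no count with doxycycline and 1.12 and 0.941 CPM with retinoic acid. The Zscan4, Tcstv and Usp17l genes are near-identical copies among which reads are shared by model. The value of a single copy is therefore uncertain, and such copies are not separate observations.

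Of 13 tested germline genes, 9 were higher with retinoic acid and 1 (Ddx4) with doxycycline. Dazl, an RNA-binding protein of germ cells, had 8.22 and 7.53 against 113 and 113 CPM. DNA methylation genes parted by enzyme: the cofactor Dnmt3l had 19.2 and 20.2 against 82.4 and 84.9 CPM, Tet2 had 25.1 and 30.7 against 131 and 128 CPM, but the methyltransferase Dnmt3b had 195 and 197 against 73.6 and 76.1 CPM. Dnmt1 was not called (0.01 ± 0.047). Polycomb repressive complex 2 genes stayed within 0.76 of 0 (6 higher with retinoic acid, 5 with doxycycline of 12). Of 18 genes of histone H2B ubiquitination, 14 were higher with doxycycline (median -0.30), and Usp44, a deubiquitinase, stood apart at 1.97 ± 0.11.

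**Figure D3:**
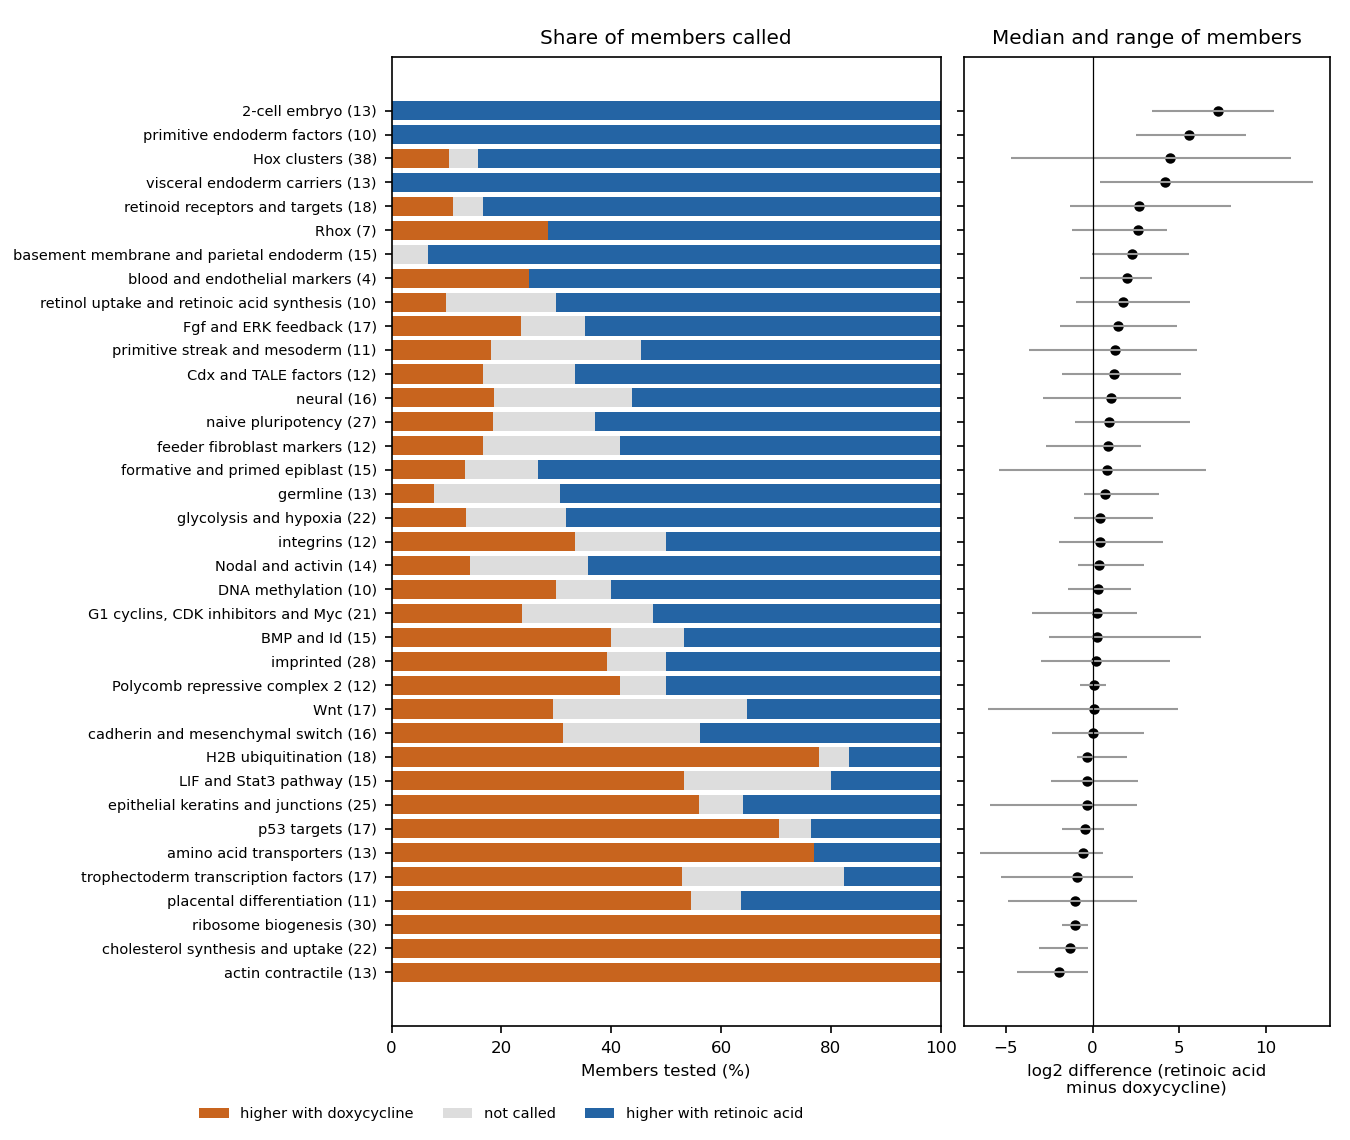
For each of the 37 gene lists, ordered by median, the left panel gives the percentage of tested members (number in brackets) that were higher with doxycycline, not called or higher with retinoic acid in Phf6 KO cells, and the right panel the median (point) and the range (line) of the log2 difference. The 2-cell, primitive endoderm, Hox and visceral endoderm lists are at the top with medians of 4.19 to 7.24. Ribosome biogenesis, cholesterol and contractile genes are at the bottom, with every tested member higher with doxycycline.

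Growth and metabolic genes also separated the treatments. All 30 ribosome biogenesis genes were higher with doxycycline (median -0.99). Nucleolin (Ncl), an abundant nucleolar protein, had 1400.0 and 1542 CPM with doxycycline and 676 and 681 CPM with retinoic acid, and the rRNA processing gene Rrp12 had 87.2 and 76.3 against 22.4 and 25.5 CPM. Myc, an activator of this gene set, had 59.1 and 57.0 against 5.33 and 4.86 CPM (-3.50 ± 0.097, adjusted p = 3.8e-22). Amino acid transporter genes were higher with doxycycline in 10 of 13, among them the cystine transporter gene Slc7a11 (88.3 and 65.5 against 5.29 and 5.65 CPM). Of 22 glycolysis and hypoxia genes, 15 were higher with retinoic acid and 3 with doxycycline (median 0.44). P4ha1, a collagen prolyl hydroxylase subunit, had 26.2 and 26.4 against 291 and 306 CPM, and Ldha, lactate dehydrogenase, had 433 and 400.4 against 1442 and 1603 CPM. Gapdh, at 5782 and 5134 against 3361 and 3588 CPM, had the reverse direction.

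All 22 genes of cholesterol synthesis and uptake were higher with doxycycline (median -1.29). The early enzyme gene Hmgcs1 had 499 and 516 against 148 and 145 CPM. Srebf2, whose protein activates these genes through sterol regulatory elements, had 380 and 363 against 218 and 231 CPM. Its motif was searched as TCACNCCAC on both strands. Hmgcs1 was the only 1 of 15 list genes with a window that held it, compared with 331 of 27025 genes (1.22%), and its window, chr13:119690101-119690350 on the plus strand of GRCm38.p6 from RefSeq, is shown with the match in capitals.
Hmgcs1: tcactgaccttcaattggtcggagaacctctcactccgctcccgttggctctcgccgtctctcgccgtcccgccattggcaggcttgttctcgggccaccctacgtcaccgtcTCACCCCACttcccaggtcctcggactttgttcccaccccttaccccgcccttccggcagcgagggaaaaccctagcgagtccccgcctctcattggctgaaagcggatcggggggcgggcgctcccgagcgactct

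All 13 actin contractile genes that passed the filter were higher with doxycycline (median -1.96), and Actg2 did not pass it. Transgelin (Tagln), a smooth muscle actin-binding protein, had 238 and 207 CPM with doxycycline and 11.9 and 10.1 CPM with retinoic acid (-4.34 ± 0.090, adjusted p = 8.9e-21). Tropomyosin 1 (Tpm1) had 648 and 647 against 81.6 and 77.3 CPM. Cyr61, a matricellular protein gene that responds to cell tension, had 615 and 591 against 33.1 and 33.9 CPM. The CArG box, the binding motif of serum response factor, was found in the windows of 2 of 10 list genes, Myl9 and Cnn2, compared with 439 of 27025 genes (1.62%). The Myl9 window, chr2:156775214-156775463 on the plus strand, is shown with the box in capitals, for a regulatory light chain gene that had 13.9 and 13.2 against 3.79 and 3.14 CPM.
Myl9: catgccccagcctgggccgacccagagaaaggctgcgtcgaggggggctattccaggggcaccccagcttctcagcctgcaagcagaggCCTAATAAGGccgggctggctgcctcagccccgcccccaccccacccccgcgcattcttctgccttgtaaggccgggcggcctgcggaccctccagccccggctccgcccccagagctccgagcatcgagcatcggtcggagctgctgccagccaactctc

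Adhesion genes were mixed. Vim, an intermediate filament gene of motile cells, had 678 and 630.2 CPM with doxycycline and 130.1 and 127 CPM with retinoic acid, whereas Twist1, a mesenchymal bHLH factor, had 1.29 and 1.31 against 10.1 and 10.4 CPM. The laminin receptor subunit gene Itga6 had 551 and 611 against 153 and 154 CPM, and Itga2, a collagen receptor subunit gene, had 0.503 and 0.478 against 8.52 and 7.95 CPM. Among cell cycle genes, Ccnd2 was higher with retinoic acid (12.8 and 10.2 against 71.0 and 65.1 CPM) and Cdk4 was higher with doxycycline (440 and 443 against 205 and 215 CPM). Imprinted genes were called in both directions, 14 higher with retinoic acid and 11 with doxycycline of 28. Dlk1, a Notch-like protein gene, had 6.60 and 5.80 against 132 and 148 CPM, and Igf2, a fetal growth factor gene, had 587 and 594 against 263 and 283 CPM.

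Markers of other cell types were read across both treatments. Of 14 feeder fibroblast markers, 12 were tested: 7 were higher with retinoic acid and 2 with doxycycline, and their summed level was 146 and 139.9 CPM with doxycycline and 213 and 215 CPM with retinoic acid. The 7 were Col1a2, Col3a1, Col5a1, Col6a1, Pdgfrb, Fbn1 and Lox. Fbn1, a microfibril protein gene, had 7.999 and 8.13 against 47.5 and 51.8 CPM, and Col1a2 had 2.69 and 2.51 against 8.71 and 9.26 CPM. Col1a1 (21.6 and 18.5 against 16.2 and 15.7 CPM) and Col5a2 (30.3 and 27.9 against 4.40 and 4.76 CPM) were higher with doxycycline, Dcn was below 0.42 CPM in each library, and Lum had at most 1 count. Of 11 blood and endothelial markers, 4 were tested: 3 were higher with retinoic acid, each by at least 2-fold, and 1 was higher with doxycycline (median 1.99). Hba-x, Cx3cr1 and Emcn had 0 counts in all 4 libraries, and Cdh5 of endothelium had 0.783 and 0.538 against 4.45 and 4.86 CPM. Of 20 neural genes, 16 were tested, 9 higher with retinoic acid (Pax6: 0.336 and 0.179 against 9.03 and 9.15 CPM) and 3 with doxycycline (Nes: 119 and 131 against 16.99 and 17.99 CPM). Of 16 primitive streak and mesoderm genes, 11 were tested, 6 higher with retinoic acid and 2 with doxycycline (median 1.3). Summed levels of these 2 lists went the other way from the counts. The neural list held 373 and 389 CPM with doxycycline and 311 and 298 CPM with retinoic acid, and the streak and mesoderm list 33.3 and 32.2 against 29.4 and 29.6 CPM. Kdr, a receptor of vascular and mesodermal precursors, had 3.64 and 3.41 against 8.61 and 8.79 CPM, Lhx1, a LIM homeobox gene, had 0 and 0.0598 against 2.53 and 2.20 CPM, and Bmp4 had 22.2 and 21.3 against 6.83 and 6.75 CPM. T (brachyury), Mesp1 and Msgn1 did not pass the filter. The part of any such cells in the differences above was not tested.

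The same contrast in WT cells, which shares no library with the KO contrast, gave 12624 called genes (70.6%), 37.4% higher with retinoic acid and 33.2% higher with doxycycline. Of the genes called higher with retinoic acid, 5425 were shared, which is 80% of the KO and 81.2% of the WT calls. On the doxycycline side 4823 were shared (81.1% and 81.2%). For at least 2-fold differences the shared retinoic acid genes, 2958, were 78.8% of the KO and 76.2% of the WT calls. The shared doxycycline genes, 787, were 52.7% of the KO and 65.1% of the WT calls. In WT 21.7% of genes were at least 2-fold higher with retinoic acid and 6.76% with doxycycline. A direct test of the difference between the lines called 3952 genes (22.1%): 1921 (10.7%) were more positive in KO, that is, shifted toward retinoic acid, and 2031 (11.4%) more negative. This split depended on the scaling: 48.6% of calls were more positive with TMM scaling and 37.8% with upper-quartile scaling.

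Cdx2 separated the treatments less in KO than in WT. For Cdx2 the WT means were 121 ± 5.25 CPM with doxycycline and 13.1 ± 2.25 CPM with retinoic acid, and the test of the difference gave 1.46 ± 0.17 (adjusted p = 1.6e-07). Gata3 (1.02 ± 0.145), Krt8 (0.74 ± 0.11) and Igf2 (1.24 ± 0.074) were called in the same sense, and Hand1 was not (-0.30 ± 0.25, adjusted p = 0.46). In all, 9 of 17 trophectoderm factors were more positive in KO, beside 10.7% of all genes, 2 (Eomes and Grhl2) were more negative and 6 were not called. Of the 9, Tfap2a and Id2 are higher with retinoic acid in KO, so that a more positive value is no smaller separation there. The more negative calls depended on the processing: with DESeq2 this list had 7 more positive and 0 more negative members, and with effective-length offsets 7 and 1. Of 11 placental genes tested, 8 were more positive in KO and 2 more negative (median 1.68). Among these 11, WT had 1 call higher with retinoic acid and 8 with doxycycline, compared with 4 and 6 in KO. Gata6 separated the treatments more in KO. Its doxycycline libraries were lower in KO (1.73 and 2.21 CPM) than in WT (9.47 and 10.95 CPM) and its retinoic acid libraries higher (95.2 and 101 against 58.0 and 54.9 CPM). The difference was 3.18 ± 0.18 (adjusted p = 2e-13). Rarb (0.33, adjusted p = 0.69) and Cyp26a1 (0.03, adjusted p = 0.99) were not called different between the lines.

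For Nanog and Sox2 the treatment difference was more negative in KO than in WT. In WT, Nanog was lower with doxycycline (199 and 208 CPM) than with retinoic acid (431 and 413 CPM), and in KO it was higher with doxycycline, a difference of -1.63 ± 0.073 (adjusted p = 1.3e-15). Sox2 was higher with retinoic acid in both lines, by 0.61 ± 0.058 in KO and 1.71 ± 0.062 in WT. Like Cdx2, Sox2 thus separated the treatments less in KO, with a difference between the lines of -1.11 ± 0.085 (adjusted p = 6.5e-11). Of the Nodal and activin genes, 7 of 14 were more negative in KO, 1 was more positive and 6 were not called. Of the Fgf and ERK genes, 10 of 17 were more negative and 1 more positive, beside 11.4% and 10.7% of all genes. Lefty2, a Nodal antagonist and target, had 2.29 and 2.63 CPM with doxycycline and 3.04 and 3.66 CPM with retinoic acid in KO, but 0.613 and 0.303 against 28.6 and 24.3 CPM in WT (-5.47 ± 0.35, adjusted p = 1.7e-12).

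**Figure D4:**
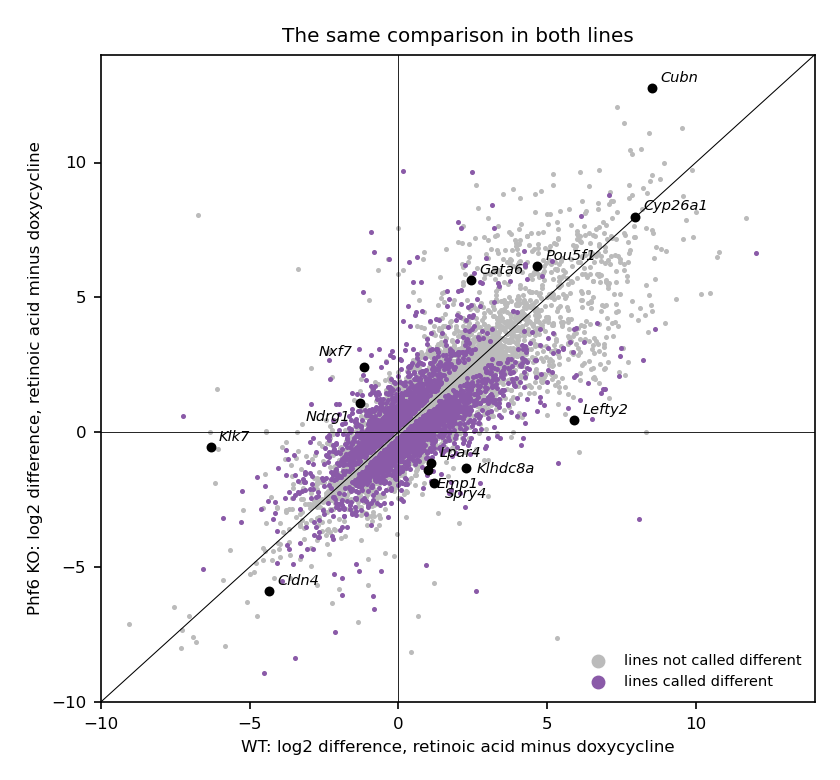
Each point is 1 of the 17884 genes tested, with the log2 difference of retinoic acid over doxycycline in WT cells on the horizontal and in Phf6 KO cells on the vertical axis, and purple points are genes whose difference was called between the lines. Most points lie along the diagonal, Cyp26a1 sits on it, Cubn and Gata6 above it and Lefty2 below it.

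p53 target genes shifted toward doxycycline in KO. Of 17 tested, 12 were higher with doxycycline and 4 with retinoic acid in KO (median -0.43), compared with 5 and 8 in WT (median 0.10). The direct test was more negative in KO for 16 of the 17, beside 11.4% of all genes, and Pmaip1 was the exception (-0.41, adjusted p = 0.076). Cdkn1a, the p21 cell cycle inhibitor, had 128 and 119 CPM with doxycycline and 55.1 and 57.1 CPM with retinoic acid in KO, and 77.0 and 60.1 CPM (means) in WT. Btg2, an antiproliferative gene, had 183 and 183 against 53.2 and 54.3 CPM in KO (difference from WT -0.97, adjusted p = 6e-11). Phlda3, an inhibitor of Akt, had 52.4 and 48.5 against 31.1 and 31.0 CPM in KO, and the WT means were 48.5 and 60.9 CPM. The count of more negative genes was 10 with effective-length offsets, 12 without the first WT retinoic acid library and 14 to 17 under the other settings.

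**Figure D5:**
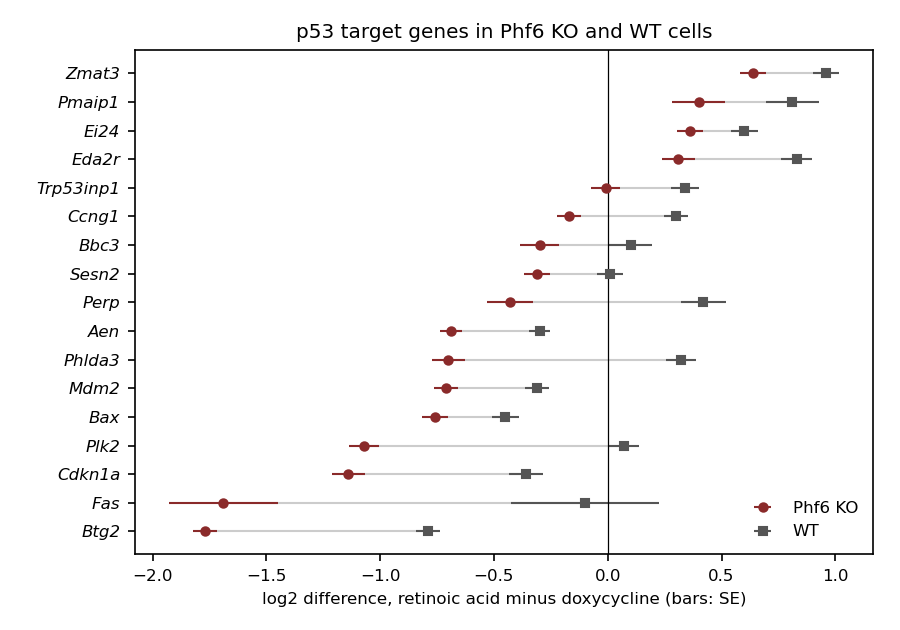
The log2 difference of retinoic acid over doxycycline (horizontal axis, bars are SE) is shown for 17 p53 target genes in Phf6 KO cells (red circles) and WT cells (grey squares), which share no library. The KO point lies to the left of the WT point for each gene, by 0.23 for Ei24 to 1.59 for Fas.

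Genes that moved at least 2-fold in opposite directions in the lines were few: 8 were higher with retinoic acid in KO and with doxycycline in WT, and 8 the reverse. Of these, 6 had at least 5 CPM in a group, a called difference and a symbol that is not a predicted one, and they were chosen after their values were seen. Nxf7, an RNA export factor gene, had 7.50 and 7.29 against 40.5 and 39.0 CPM in KO, and 69.4 and 64.5 against 27.8 and 32.4 CPM in WT. Ndrg1, a stress-responsive gene, had 20.2 and 21.2 against 39.4 and 49.3 CPM in KO and 72.7 and 76.7 against 28.6 and 32.7 CPM in WT. Spry4, the ERK feedback inhibitor, had 17.1 and 15.9 against 4.68 and 4.18 CPM in KO and 5.86 and 6.11 against 13.4 and 14.2 CPM in WT. Emp1, Klhdc8a and Lpar4 had the same pattern as Spry4, with differences between the lines of -2.40, -3.61 and -2.25.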

How the data were processed

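RNA-seq was made from 12 libraries, 2 for each of 6 groups. The submitters' processing notes name STAR 2.5.3a, RSEM 1.3.0, DESeq2 1.18.1 and the mm10 build, without their roles. The deposited files give expected counts, TPM and effective length per gene, per the file headers. No source used here gives the strand setting or the annotation release. Expected counts, 9.5 to 11.6% of them not whole, were rounded. Of 53379 identifiers, 53274 matched GENCODE M21, which gave GRCm38 positions. Symbols came from the deposited identifiers.

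All 12 libraries were fitted together in edgeR 4.0.16 (R 4.3.3, limma 3.58.1) by the robust quasi-likelihood test, after filterByExpr at a minimum count of 10 (17884 genes) and TMM scaling, with 6 residual degrees of freedom. p-values were Benjamini-Hochberg adjusted over all genes tested. SE is the log2 difference over the root of F and may understate counting error of low genes. TMM factors were 1.157 and 1.163 for KO retinoic acid and 0.956 and 0.982 for KO doxycycline. Replicates differed by more than counting noise (chi-square per degree of freedom 6.28 for KO doxycycline and 1.9 for KO retinoic acid). Same-numbered libraries of both KO groups did not deviate together (r = -0.006), so no pairing was used. Named genes were the 12 largest called differences in each direction with at least 5 CPM and no overlap, the 6 largest differences between lines in each direction, 37 gene lists and fixed lineage genes. The members and lists were chosen with earlier results of these data known. Tested on simulated data (16988 genes, 200 of them changed), the KO comparison recovered 90% of 2-fold and 40% of 1.25-fold changes with 12 false calls among 16788 unchanged genes. In the real data 71.2% of genes were called, so the simulation does not show the errors of scaling or calling at that extent of change. DESeq2 1.42.0 and other scalings, filters, length offsets, a replicate block and left-out libraries were the alternatives. Promoter windows came from RefSeq. Some genes of the lists and of the naming rule are not reported here by name.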

Additional observations from a re-analysis of the deposited data

Results flagged for a closer look

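Each value here is the treatment difference (log2, retinoic acid over doxycycline) in KO minus that in WT, and each was called by the edgeR interaction test. The most negative were Lefty2 (-5.47), Dppa1 (-4.42), Sp5 (-4.15), Npr3 (-3.89), Rapgef3 (-3.87) and Fbln5 (-3.87). Npr3, a natriuretic peptide receptor gene, had 0.783 and 0.657 CPM with doxycycline and 1.17 and 1.31 CPM with retinoic acid in KO, against 0.885 and 1.11 and then 25.5 and 26.03 CPM in WT. Dppa1 had no count in the KO retinoic acid libraries, where it was at least 22.7-fold lower than with doxycycline, so its fitted value depends on the prior count.

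The most positive fitted values were Exosc6 (9.52), Pramel7 (7.15), Klk7 (5.77), Xlr3b (5.46), Spink1 (4.37) and Cubn (4.23). Exosc6 and Pramel7 had no count with doxycycline in KO, where they were at least 33-fold and 31.4-fold higher with retinoic acid, so their fitted values and their rank depend on the prior count. Exosc6 also had 0 CPM in the untreated KO libraries, and its WT doxycycline libraries were apart from each other, at 1.97 and 5.30 CPM. Whether reads were assigned to this entry alike in all groups was not tested. Klk7, a kallikrein protease gene, did not differ by the test in KO (adjusted p = 0.33) and had 9.60 and 9.99 CPM with doxycycline and 0.220 and 0 CPM with retinoic acid in WT. Cubn had 0.749 and 1.11 against 358 and 352 CPM in WT.

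Among fixed genes the values were 1.46 for Cdx2, 1.02 for Gata3, 3.18 for Gata6, 0.74 for Krt8, 1.24 for Igf2, -1.63 for Nanog and -1.11 for Sox2. Pou5f1 (1.51) had lower doxycycline libraries in KO (13.03 and 14.3 CPM) than in WT (34.0 and 46.3 CPM). For Phf6, the disrupted gene, the value was -0.72.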

How the results depend on the processing

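The count of genes higher with retinoic acid was 5768 to 7494 and that of genes higher with doxycycline 5293 to 6283 over scalings, filters, DESeq2, length offsets and a fit of the 4 libraries alone. Tested with glmTreat against a 2-fold difference, the counts were 2517 and 860. Leaving out 1 library gave 5968 to 6386 and 5458 to 5807. For the difference between lines, leaving out 1 library gave 1502 to 1820 more positive and 1519 to 1953 more negative genes. Effective-length offsets gave 1121 and 1189, and DESeq2 gave 1306 more negative genes. The cause was not tested. With the replicate block the counts were 6727 and 5910, and 1856 and 1963 for the difference between lines. Of the treatment differences of named genes, 3 reversed, all with effective-length offsets: Pbx2 (-0.02, from 0.29), Bmpr1a (-0.24, from 0.02) and Cdk6 (0.67, from -0.02). A further 53 genes lost and 18 gained a call under some setting. Of the differences between lines, Dppa1 lost its call without either KO retinoic acid library (adjusted p = 0.11 and 0.088) and Spink1 without the first WT doxycycline library (adjusted p = 0.41). Of the list medians of the KO treatment difference, only that of the cadherin and mesenchymal list (0.02) changed sign. Of those of the difference between lines, the medians of the 2-cell (-0.17, up to 0.48), Hox (-0.11, up to 0.08), retinol uptake (0.17, down to -0.16), BMP (0.08 to -0.05), neural (-0.19 to 0.05), retinoid receptor (-0.01, up to 0.07) and H2B ubiquitination (-0.03, up to 0.03) lists did under some setting. In the simulated data, where only 200 genes were changed, 66% of 1.5-fold changes were recovered for the KO comparison.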
